A study of Homo sapiens with 3 samples.

Results

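Cells that carry the transcripts of contractile smooth muscle were examined in blood vessel organoids with and without induced NEUROD1, a transcription factor that drives neuronal differentiation. They were chosen by their counts of unique molecular identifiers (UMIs): at least 3 UMIs of ACTA2 and at least 3 of TAGLN, with at least 1 UMI of MYH11, CNN1, DES or ACTG2, in barcodes that reached 1000 UMIs and 500 genes without passing 20% mitochondrial UMIs. Cells with UMIs of both KCNJ8 and ABCC9, a channel pair of pericytes, were left out. The rule found 129 cells, called members in the titles of the plots, among 23805 kept cells, 90 of 8858 without induction, 15 of 5303 after 15 days and 24 of 9644 after 45 days. Because ACTA2, TAGLN and the 4 entry genes chose the cells, and KCNJ8 and ABCC9 excluded some, their levels are a description and support nothing.

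All organoids came from the established human embryonic stem cell line H1, in which a doxycycline-inducible NEUROD1-P2A-GFP cassette had been integrated with a PiggyBac transposon. They were harvested at day 45 after no induction, 15 days or 45 days of induction with doxycycline at 1 µg/ml, and all 3 groups received BDNF and NT-3 from day 15. For the 15 day group, which part of the culture was induced is not stated. Each group was 1 library of 5 to 6 pooled organoids, so no test between groups was possible, and every interval given here is a 95% interval of counting error only.

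Smooth muscle cells wrap the larger vessels and shorten when myosin pulls on filaments of smooth muscle actin. ACTA2 encodes that actin, TAGLN an actin-binding protein that marks the lineage early, CNN1 a calponin of the thin filament, and MYH11 and DES the myosin heavy chain and the intermediate filament of mature cells. Many of these genes are switched on by the serum response factor SRF, which binds the CArG box, with cofactors such as myocardin. Pericytes of capillaries, activated fibroblasts and smooth muscle precursors can carry ACTA2 and TAGLN as well.

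The files held 10232, 5962 and 10765 barcodes without induction, after 15 days and after 45 days, with 59879923, 49488425 and 64171327 UMIs. Transgene reads could be followed only through NEUROD1, which was counted at 1.33 CPM (UMIs of a gene scaled to a common total) without induction, 1.41 CPM after 15 days and 42.7 CPM after 45 days over all kept cells. The library labelled 15 days thus stood no higher than the uninduced one, although the 3′ end of a cassette transcript may lie outside the NEUROD1 gene. Pairs of libraries shared 13 to 33 barcodes, and 0 of the chosen cells carried a shared one. A score from simulated doublets marked 9 of the 90 chosen cells without induction, 4 of the 15 after 15 days and 3 of the 24 after 45 days, and they were kept.

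The name smooth muscle held in part. Over all 3 libraries 38 of the 129 cells had a UMI of MYH11, 82 of CNN1, 51 of ACTG2, the actin of visceral smooth muscle, and 7 of DES. MYH11 was counted in 26 of 90 cells without induction, 5 of 15 after 15 days and 7 of 24 after 45 days. For comparison, cells with haematopoietic markers, which should lack the gene, had a MYH11 UMI in 3 of 82, 1 of 111 and 3 of 100 cells in the same order, at median depths of 4821.5, 7841 and 6164 UMIs against 9680, 9930 and 9507 UMIs in the chosen cells. DES was counted in 7 of 90 uninduced cells, in 0 of 15 after 15 days, which allows a share of up to 20%, and in 0 of 24 after 45 days, which allows up to 12.5%. CNN1 was thus the most frequent way into the set in each library, with 48 of 90 cells uninduced, 13 of 15 after 15 days and 21 of 24 after 45 days. Most cells are better described as ACTA2 and TAGLN cells than as mature smooth muscle, and that name is used below. Next to the threshold, 9, 4 and 6 cells lay just inside without induction, after 15 and after 45 days, and 18, 2 and 5 lay just outside, with the lower of the 2 counts at 2.

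ACTA2 and TAGLN cells were less frequent in both induced libraries. They made up 1.02% of kept cells without induction (exact Clopper-Pearson interval 0.818% to 1.25%), 0.283% after 15 days (0.158% to 0.466%) and 0.249% after 45 days (0.160% to 0.370%). The ratio of shares was 0.245 after 45 days against no induction (0.149 to 0.388) and 0.278 after 15 days against no induction (0.150 to 0.484). The 2 induced libraries lay within counting error of each other, at 0.880 for 45 over 15 days (0.443 to 1.80). When every cell was thinned to 3000 UMIs, which left out 804, 457 and 956 shallower cells, the shares were 0.435%, 0.0619% and 0.138% in the order none, 15 and 45 days, and both induced libraries were still lower. Only 3 cells met the rule at 15 days after thinning.

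The lower share went with TAGLN more than with ACTA2. At least 3 ACTA2 UMIs were found in 2.80% of kept cells without induction, 3.15% after 15 days and 1.61% after 45 days. At least 3 TAGLN UMIs were found in 6.95%, 2.30% and 1.86% of kept cells in the same order, so that the ratio to no induction was 0.267 after 45 days (0.225 to 0.316) and 0.331 after 15 days (0.270 to 0.402). The ACTA2 ratio was 0.574 after 45 days (0.467 to 0.704) and 1.12 after 15 days (0.919 to 1.37), an interval that includes equal shares. After thinning the ACTA2 ratio at 15 days was 0.775 (0.538 to 1.10), on the other side of equality and again including it, and at 45 days 0.558 (0.400 to 0.772). Among the cells with 3 ACTA2 UMIs, TAGLN reached 3 UMIs in 67.7% without induction (61.5% to 73.5%), 25.1% after 15 days (18.8% to 32.4%) and 34.8% after 45 days (27.4% to 42.9%). Thinning to 3000 UMIs gave 67.0%, 25.0% and 35.5% in the same order. TAGLN is a gene of the rule, so this share is a description. Of the cells that carried both genes, a similar part passed the entry genes: 61.3% without induction, 52.4% after 15 days and 63.0% after 45 days. As the background of free RNA, 3 TAGLN UMIs were found in 1 of 82, 2 of 111 and 1 of 100 cells with haematopoietic markers, and none of those cells met the rule. Cells with epithelial markers, at median depths of 10357, 9413 and 6914 UMIs, had 3 TAGLN UMIs in 71 of 392, 24 of 333 and 19 of 498 cells in the same order, and 2, 0 and 0 of them met the rule. TAGLN was thus less frequent in the induced libraries in these cells too.

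**Figure D1:**
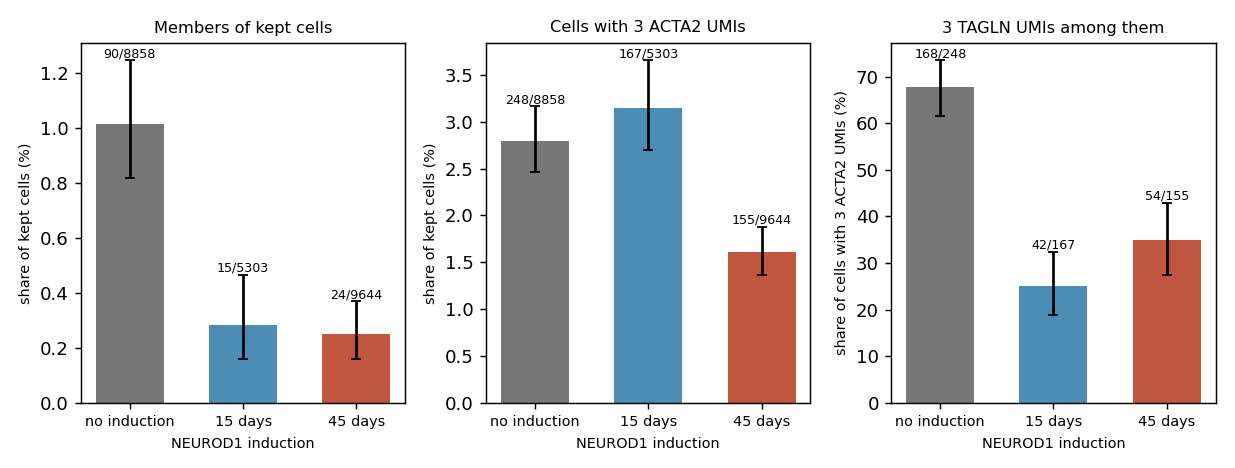
Share of cells in percent in each library, for ACTA2 and TAGLN cells among kept cells, cells with at least 3 ACTA2 UMIs among kept cells, and cells with at least 3 TAGLN UMIs among those with 3 ACTA2 UMIs, with exact 95% Clopper-Pearson bars. The set falls to 0.283% and 0.249% after 15 and 45 days, against 1.02% without induction, and TAGLN accompanies ACTA2 in 25.1% and 34.8% of cells, against 67.7%.

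The level of TAGLN in the same ACTA2 cells, which include the members and were described after the values were seen, is given as a description. In the cells with 3 ACTA2 UMIs, which numbered 248 without induction, 167 after 15 days and 155 after 45 days, TAGLN was at 1536 CPM, 260 CPM and 483 CPM. There were 1.22 TAGLN UMIs for each ACTA2 UMI without induction, 0.409 after 15 days and 0.566 after 45 days. MYL9, the regulatory light chain of smooth muscle myosin, was at 548 CPM, 242 CPM and 265 CPM in these cells in the same order. TAGLN and MYL9 were both highest without induction in these cells.

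Within the set, the 2 genes that defined it were read as a description only. ACTA2 (ENSG00000107796, chr10:88935074-88991339, minus strand, GRCh38) was at 1767 CPM without induction, 1285 CPM after 15 days and 1684 CPM after 45 days. TAGLN (ENSG00000149591, chr11:117199321-117204782, plus strand) was at 2783 CPM, 1457 CPM and 1692 CPM in the same order, highest without induction. MYH11 (ENSG00000133392, chr16:15703172-15857033, minus strand) was at 60.5, 44.5 and 48.6 CPM, from 70, 7 and 12 UMIs. The intervals overlap, at 47.2 to 76.4, 17.9 to 91.8 and 25.1 to 84.9 CPM, so no order is read from them. CNN1 (ENSG00000130176, chr19:11538717-11550323, plus strand) was at 113, 165 and 194 CPM, lowest without induction, where TAGLN was highest. ACTG2 (ENSG00000163017, chr2:73892314-73919865, plus strand) was at 119, 210.0 and 40.5 CPM, and 1 cell gave 87.9% of its UMIs at 15 days. ACTG2 and ACTA2 encode near-identical proteins, and how any reads shared by both were assigned is not given in the sources used here. DES (ENSG00000175084, chr2:219418377-219426739, plus strand) was at 8.64 CPM without induction and at 0 in both induced libraries, where 3 UMIs would give 19.1 CPM (15 days) and 12.1 CPM (45 days).

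The promoters of 3 contractile genes are shown because they hold the CArG box. Of the 3, only ACTG2 is a gene of the rule. The 300 bases run from 250 before to 50 after a RefSeq start (GRCh38.p14), 5′ to 3′ on the gene's strand, with each box in capitals. They belong to ACTG2 (chr2:73892758-73893057, plus strand), MYLK (chr3:123620499-123620798, minus strand) and ACTN1, an actin cross-linker of dense bodies (chr14:68977517-68977816, minus strand). MYLK is the gene of the kinase that starts contraction. It has 1 window here, and which product of the gene begins at this start was not determined.
ACTG2: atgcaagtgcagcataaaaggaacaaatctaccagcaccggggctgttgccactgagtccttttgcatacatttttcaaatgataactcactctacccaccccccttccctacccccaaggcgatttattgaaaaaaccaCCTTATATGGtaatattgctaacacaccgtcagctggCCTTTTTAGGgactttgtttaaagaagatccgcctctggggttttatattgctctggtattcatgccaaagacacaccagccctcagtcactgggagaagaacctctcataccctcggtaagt
MYLK: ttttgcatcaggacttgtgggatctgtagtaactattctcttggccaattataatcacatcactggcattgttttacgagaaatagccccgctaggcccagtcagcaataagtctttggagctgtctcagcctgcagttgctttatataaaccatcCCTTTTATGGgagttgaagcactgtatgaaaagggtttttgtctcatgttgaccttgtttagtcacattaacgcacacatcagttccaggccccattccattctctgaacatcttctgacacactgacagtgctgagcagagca
ACTN1: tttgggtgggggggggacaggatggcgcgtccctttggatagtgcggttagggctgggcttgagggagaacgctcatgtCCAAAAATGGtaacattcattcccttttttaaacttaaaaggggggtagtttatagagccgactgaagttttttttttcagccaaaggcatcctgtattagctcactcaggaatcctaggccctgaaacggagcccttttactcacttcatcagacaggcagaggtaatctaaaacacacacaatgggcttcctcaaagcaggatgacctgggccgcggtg
The 2 boxes of ACTG2 begin 110 and 73 bases before the start, that of MYLK 94 and that of ACTN1 171 bases before it. The CArG box was searched only in its strict form, 10 bases with CC, then only A or T, then GG. Boxes with a G or C between these ends, or outside the windows, were not counted. The strict box, which reads the same on both strands and does not overlap itself here, was found in 7 of 21 contractile list genes with a window (33.3%: ACTG1, ACTN1, CNN2, FLNA, MYLK, SMTN and TPM4). Of the genes of the rule ACTG2 had it, and the strict letters were not in the windows of ACTA2 and CNN1, which does not show that these genes lack a CArG box. TAGLN, MYH11, DES, MYL9 and ACTB had no window and were not searched. By window, 7 of the 42 windows of the list hold the box (16.7%), against 1.29% of all 35116 windows. Of 27305 genes 1.60% have a window with it. A gene with more windows has more room for a match, and ACTN1 has 4, of which the 1 with a box is shown. A match is a description of letters and no evidence of binding in these cells.

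Against all other kept cells of the same library, ACTA2 and TAGLN cells carried more of the contractile apparatus beyond the genes of the rule. Of 20 contractile list genes 9 passed 2-fold upward in all 3 libraries and 0 downward, where 2.51% of all 6376 tested genes were higher and 0.69% lower. The list's median log2 ratio was 1.30 without induction, 1.16 after 15 days and 1.71 after 45 days, against all-gene medians of 0.05, 0.01 and 0.12. Because cells with more of one contractile gene tend to carry the others, this list is not independent of the choice of cells, and no test was made. Of 21 genes of the dense plaque, where filaments meet the membrane, 12 were higher and 0 lower in all 3 libraries.

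MYL9 (ENSG00000101335, chr20:36541484-36551447) had the widest gap of the contractile list. It was at 887 CPM in the ACTA2 and TAGLN cells and 89.6 CPM in other cells without induction, 541 and 48.4 CPM after 15 days, and 919 and 30.8 CPM after 45 days. Its log2 ratio to other cells was 3.24, 3.35 and 4.69 in that order, the widest gap being at 45 days, where the other cells were lowest. The 45 day value includes 1 cell of 33524 UMIs with cardiac muscle genes, described below, in which MYL9 was at 2327 CPM. TPM2, a tropomyosin that covers the actin filament, was at 1327 and 294 CPM without induction, 948 and 212 CPM after 15 days, and 988 and 285 CPM after 45 days, a log2 ratio of 2.15, 2.13 and 1.78. ACTN1 was at 506 and 67.7 CPM, 286 and 69.6 CPM, and 482 and 64.3 CPM, with other cells nearly level between libraries. FLNA, a filamin that cross-links actin, was at 331 and 88.6 CPM, 325 and 87.4 CPM, and 344 and 80.3 CPM, so neither side moved much with induction. MYLK was at 131 and 17.9 CPM, 140.0 and 27.0 CPM, and 158 and 24.9 CPM. LMOD1, a leiomodin that seeds actin filaments in smooth muscle, was at 24.2 CPM without induction, 0 after 15 days, where 3 UMIs would be 19.1 CPM, and 24.3 CPM after 45 days.

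Other leading genes belong to the membrane and the surrounding matrix. CAV1, which forms the caveolae of smooth muscle and endothelium, was at 466 and 92.9 CPM without induction, 547 and 65.0 CPM after 15 days, and 607 and 46.9 CPM after 45 days in the ACTA2 and TAGLN cells and the other cells. IGFBP7, a secreted protein of vessel walls, was at 1821 and 275 CPM, 2062 and 416 CPM, and 1741 and 257 CPM, more than 4-fold higher in each library. COL4A1, a chain of basement membrane collagen, was at 1552 and 251 CPM, 967 and 233 CPM, and 1223 and 144 CPM. ACAN, the proteoglycan aggrecan, came from 21, 3 and 6 ACTA2 and TAGLN cells: 68.3 and 1.22 CPM, 57.3 and 1.19 CPM, and 48.6 and 0.637 CPM. MICAL2, an enzyme that oxidises actin and raises SRF activity, was at 49.3 and 1.88 CPM, 50.9 and 2.61 CPM, and 56.7 and 1.67 CPM. In at least 1 library ACAN was below the other cells after thinning, and ACAN and MICAL2 were below them without cells that carry 2 markers of another class. The last alternative left 40, 4 and 15 cells in the order none, 15 and 45 days. In the full set, 48, 10 and 6 cells had at least 2 epithelial markers, and 2, 0 and 0 without counting KRT8 and KRT18. The set was also deeper than other cells, with median totals of 9680, 9930 and 9507 UMIs against 5275, 7366.5 and 5693 UMIs, and with more mitochondrial UMIs (medians of 7.27%, 4.42% and 6.54% against 4.61%, 3.81% and 3.00%). The part of depth and of mitochondrial share in these ratios was not tested.

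The nearest cells by type are those with both KCNJ8 and ABCC9, which numbered 215 without induction, 335 after 15 days and 407 after 45 days. Against them 6 of 20 contractile genes passed 2-fold upward in all 3 libraries and 0 downward, where 1.24% of 6189 genes were higher and 0.0969% lower. The KCNJ8 and ABCC9 cells were chosen without any contractile gene, so this list is again not independent of the choice, and no test was made. Their median totals were 7065, 9368 and 7297 UMIs, against 9680, 9930 and 9507 UMIs, and the part of depth was not tested. MYL9 was at 887 CPM in ACTA2 and TAGLN cells and 215 CPM in the KCNJ8 and ABCC9 cells without induction, 541 and 116 CPM after 15 days, and 919 and 79.9 CPM after 45 days. CTGF, a target of YAP and transforming growth factor signalling, was at 841 and 128 CPM, 210.0 and 39.9 CPM, and 571 and 41.3 CPM. TNFRSF12A, the receptor of the cytokine TWEAK, was at 219 and 22.9 CPM, 261 and 11.5 CPM, and 134 and 8.43 CPM, and CAVIN1, the coat protein of caveolae, at 336 and 37.0 CPM, 134 and 23.3 CPM, and 291 and 26.7 CPM. These 4 genes were higher in the ACTA2 and TAGLN cells of every library, TNFRSF12A not so in 1 library without cells that carry 2 markers of another class. Lower in them was THBS4, a matrix thrombospondin, at 22.5 and 118 CPM, 108 and 318 CPM, and 134 and 539 CPM. Of 15 tested pericyte list genes 2 were lower in all 3 libraries, and those were the 2 genes of the rule.

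**Figure D2:**
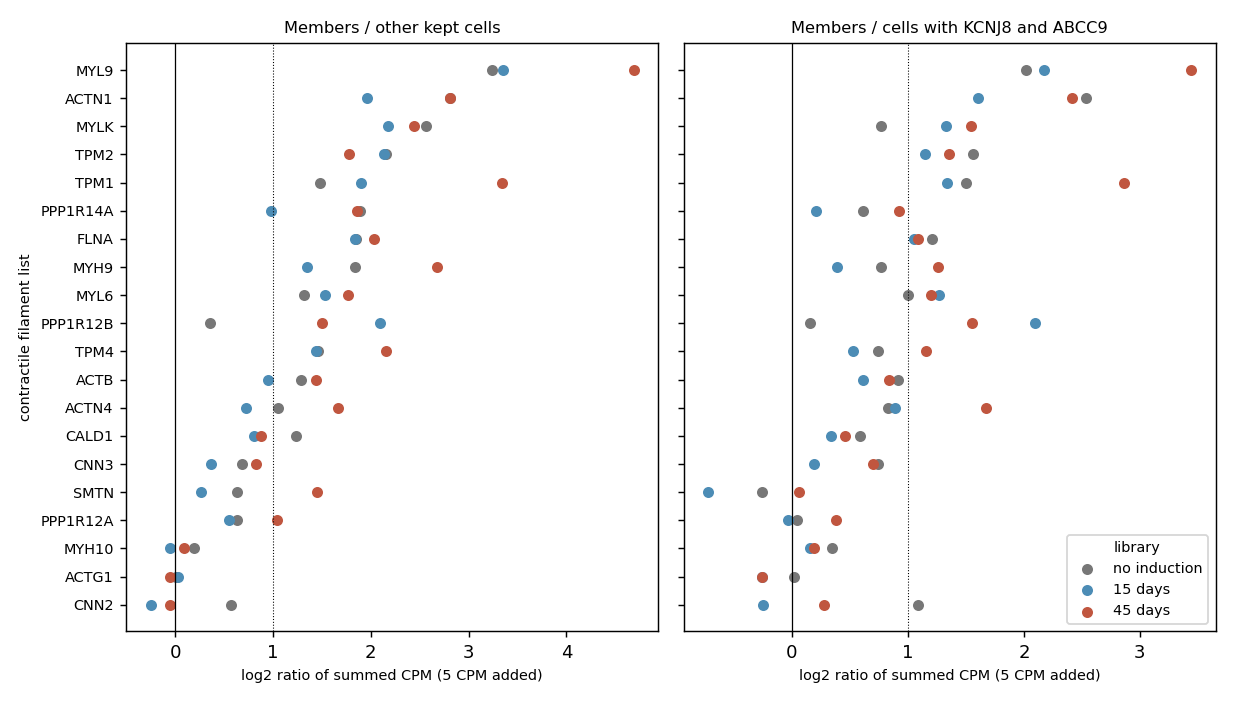
Log2 ratio of contractile list genes in ACTA2 and TAGLN cells over other kept cells and over cells with KCNJ8 and ABCC9, 1 point per gene and library, 5 CPM added to each side, dotted line at a 2-fold difference. MYL9 is highest in every library against the other cells, with 3.24, 3.35 and 4.69 for none, 15 and 45 days.

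Across induction the contractile apparatus within the ACTA2 and TAGLN cells lay close to the other genes at 45 days. After 45 days against no induction, 2 of 21 contractile list genes passed 2-fold upward and 0 downward, with a median log2 ratio of 0.14, where 10.1% of 6373 genes were higher and 4.82% lower and the all-gene median was 0.19. After 15 days against no induction, 1 was higher and 3 lower, with a median of -0.19, where 10.1% of genes were higher and 6.23% lower and the all-gene median was 0.17. Scaling by the median of ratios in place of the totals gave 402 genes higher and 424 lower at 45 days, against 642 higher and 307 lower here, and 425 and 509 at 15 days, against 641 and 397, so the balance of directions depends on scaling. That scaling lowers the log2 ratio of CPM by 0.228 at 45 days and 0.186 at 15 days, by slightly less where the added 5 CPM weighs, which puts the contractile median at 45 days at -0.08 and MYL9 below equality. With cells marked as doublets removed, the contractile median at 15 days was 0.05. In most of the higher genes 1 cell gave over 20% of the UMIs (452 of 642 at 45 days and 558 of 641 at 15 days), and in fewer of the lower genes (72 of 307 at 45 days and 86 of 397 at 15 days). MYL9 was 1.04-fold at 45 days against no induction (0.894 to 1.20) and 0.610-fold at 15 days (0.483 to 0.762). The 45 day sum of MYL9 includes 1 deep cell with cardiac muscle genes, described below, at 2327 CPM. The fold of MYL9 without that cell is not given here. TPM1, another tropomyosin, was at 2479.6 CPM without induction, 1152 CPM after 15 days and 2599 CPM after 45 days, but 67.6% of the last came from the same cell. CALD1, the caldesmon that restrains myosin, was at 1832, 1126 and 1324 CPM. SMTN, a smoothelin of contractile cells, was at 48.4, 57.3 and 105 CPM, and 2.17-fold at 45 days against no induction (1.31 to 3.52).

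**Figure D3:**
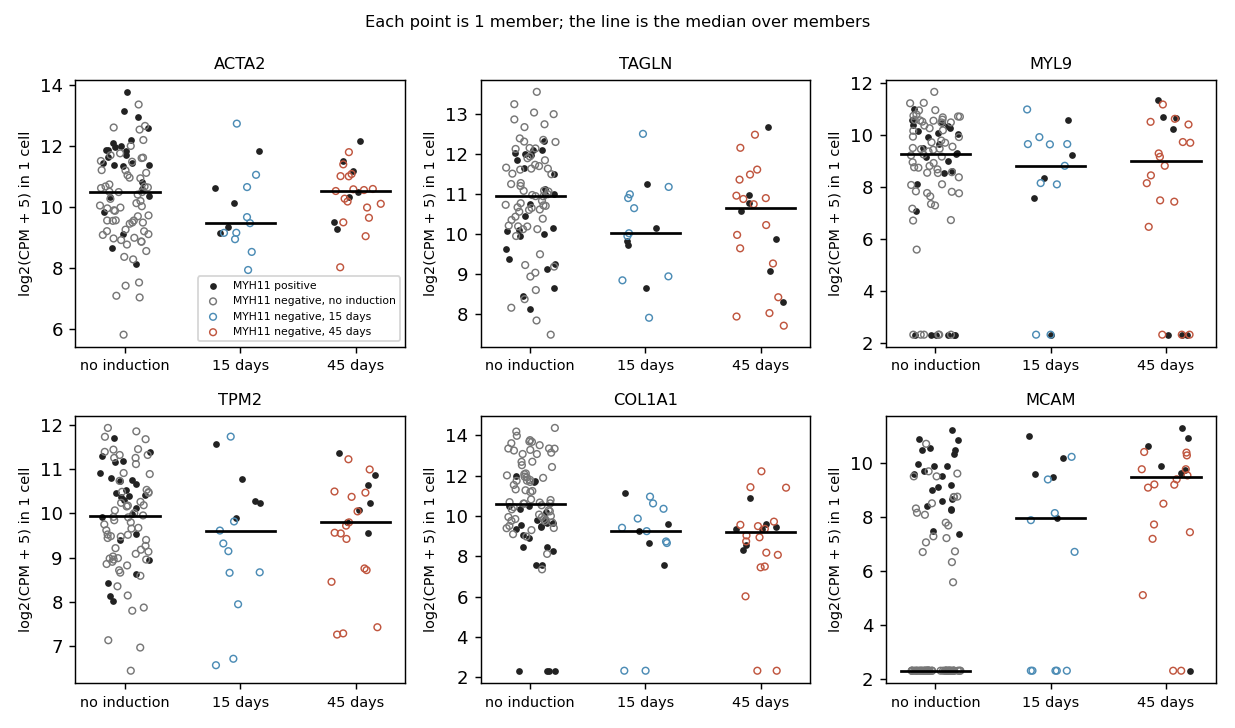
Level in each ACTA2 and TAGLN cell on a log2(CPM + 5) scale for ACTA2, TAGLN, MYL9, TPM2, COL1A1 and MCAM, 1 point per cell, filled where the cell had a MYH11 UMI, with the median as a line. Cells without a UMI sit at the bottom, and MCAM has a UMI in 44 of 90 cells without induction, 10 of 15 after 15 days and 21 of 24 after 45 days.

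Genes of fibroblast matrix were lower in the ACTA2 and TAGLN cells of both induced libraries. After 45 days against no induction, 10 of 17 were at least 2-fold lower and 0 higher, with a median log2 ratio of -1.79, and after 15 days 13 were lower and 0 higher, with a median of -1.64, where 4.82% of all tested genes were lower at 45 days and 6.23% at 15 days. COL1A1 (chr17:50183289-50201632, minus strand), the main chain of fibrillar collagen and named after its values were seen, was at 5267 CPM without induction, 954 CPM after 15 days and 935 CPM after 45 days. It was 5.63-fold lower at 45 days against no induction (4.94 to 6.45) and 5.52-fold lower at 15 days (4.69 to 6.53). Deep cells weigh on the uninduced sum: those of 59015, 47896, 38875 and 38021 UMIs were at 3440, 11713, 21222 and 10442 CPM. The folds of COL1A1 without cells above 20000 UMIs are not given here. DCN, the proteoglycan decorin, was at 471, 31.8 and 16.2 CPM, from 49, 1 and 1 cells. LUM, the proteoglycan lumican, was at 1098, 146 and 52.6 CPM and 20.9-fold lower at 45 days against no induction (12.2 to 39.3). All 3 genes were highest in the uninduced cells. LOX, which cross-links collagen and elastin, was at 294, 6.36 and 16.2 CPM, and 18.1-fold lower at 45 days (7.02 to 67.0). PTX3, a pentraxin of activated stroma, and FAP, a protease of activated fibroblasts, were at 68.3 and 62.2 CPM without induction and at 0 in both induced libraries, at least 5.62-fold and 5.12-fold lower at 45 days with the floor of 3 UMIs per library.

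The wider matrix followed in part. Of 19 genes of elastic fibres and basement membrane 8 were lower and 2 higher at 45 days against no induction, with a median of -0.71, and 5 lower and 1 higher at 15 days, with a median of -0.49. Over all tested genes 4.82% and 6.23% were lower at 45 and 15 days and 10.1% higher at both, so the higher genes of this list are at about that share.

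The direction was not particular to these cells. The same 17 genes had a median log2 ratio at 45 days against no induction of -1.22 in other kept cells and -0.25 in the KCNJ8 and ABCC9 cells, and at 15 days of -0.81 and -0.13. It also rested in part on the deepest cells: 13 of the 90 uninduced cells had above 20000 UMIs and gave 36.2% of their UMIs, and without cells above 20000 UMIs in any library the median was -0.87 at 45 days and -1.22 at 15 days. Without cells that carry 2 markers of another class it was -0.72 at 45 days. Per cell, the summed list had a median of 15006 CPM without induction, 6741 CPM after 15 days and 8126 CPM after 45 days. TGFBI, a matrix protein induced by transforming growth factor, was at 482, 108 and 68.8 CPM, and of 18 genes of that pathway and of SRF and YAP targets 7 were lower and 0 higher at 45 days, 7 lower and 1 higher at 15 days (all tested genes: 10.1% higher, and 4.82% lower at 45 days and 6.23% at 15 days). Without cells above 20000 UMIs the median of these 18 genes was -0.12 at 45 days, in place of -0.54, and -0.07 at 15 days, in place of -0.51. TWIST1, a transcription factor of mesenchyme, was at 218, 102 and 64.8 CPM, 3.36-fold lower at 45 days (2.03 to 5.97) and 2.14-fold lower at 15 days (1.29 to 3.80), where thinning turned its sign.

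A few genes of pericytes and of Notch signalling, which directs the mural fate through NOTCH3, were higher in both induced libraries, among them MCAM and NOTCH3. Of 14 pericyte list genes 3 passed 2-fold upward at 45 days and 4 at 15 days against no induction, and 0 passed it downward (all tested genes: 10.1% higher, and 4.82% lower at 45 days and 6.23% at 15 days). KCNJ8, a gene of the rule, is 1 of the 3 at 45 days, and without it the count there is near the share over all genes. Its level, at 23.3, 44.5 and 121 CPM in the order none, 15 and 45 days, is a description only. MCAM (CD146), an adhesion molecule of mural and endothelial cells, was at 254 CPM without induction, 522 CPM after 15 days and 785 CPM after 45 days, 3.09-fold at 45 days (2.57 to 3.72) and 2.05-fold at 15 days (1.59 to 2.63). NDUFA4L2, a mitochondrial protein abundant in pericytes and raised by low oxygen, was at 148, 369 and 826 CPM, in the order of induction, although 45 over 15 days turned below equality with 2 of the 4 entry genes required and without cells that carry 2 markers of another class. Over 20% of the NDUFA4L2 UMIs at 45 days came from 1 cell. PDGFRB, the receptor through which endothelium recruits mural cells, was at 257, 426 and 409 CPM. The list's median was 0.47 at 45 days and 0.73 at 15 days, against 0.14 and 0.29 in other kept cells. At 45 days it was -0.19 after thinning and 0.18 without cells that carry 2 markers of another class, so the direction of the whole list was not stable there.

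Of 11 Notch genes 2 passed 2-fold upward at 45 days and 4 at 15 days, and 0 passed it downward (all tested genes: 10.1% higher, and 4.82% lower at 45 days and 6.23% at 15 days), so the count at 45 days is near the share over all genes. NOTCH3, the receptor of mural cells, was at 133, 242 and 223 CPM without induction, after 15 days and after 45 days, 1.67-fold at 45 days (1.21 to 2.29) and 1.82-fold at 15 days (1.24 to 2.61). Its ligand JAG1 was at 126, 255 and 121 CPM and the target HES4 at 304, 598 and 372 CPM, both highest at 15 days. HEY2, a Notch target of arterial cells, was at 14.7, 63.6 and 12.1 CPM, and 1 cell gave over 20% of its UMIs at 15 days. JAG1 and HEY2 were thus not higher at 45 days than without induction. The Notch list's median was 0.70 at 45 days and 0.98 at 15 days in the ACTA2 and TAGLN cells, against 0.11 and 0.36 in other kept cells. Thinning, which left 3 cells at 15 days, gave -1.54 there, and at 45 days the median was 0.19 without cells that carry 2 markers of another class. MEF2C, a transcription factor of muscle, was at 132, 280.0 and 219 CPM, and of 27 regulator genes 8 were higher and 4 lower at 45 days, and 12 higher and 3 lower at 15 days (all tested genes: 10.1% higher, and 4.82% lower at 45 days and 6.23% at 15 days). MEF2D, of the same family, was at 18.1, 102 and 44.5 CPM. At 15 days MEF2C was level with no induction without cells above 20000 UMIs (log2 ratio -0.077), and HEY2 and MEF2D were below it after thinning. The regulators' median of 0.70 at 45 days was 0.14 without the cells above 20000 UMIs, and that of 0.65 at 15 days was -2.27 after thinning.

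The remaining lists of smooth muscle function held few tested genes, and over all tested genes 10.1% were higher at both times, 4.82% lower at 45 days and 6.23% lower at 15 days. Of 10 genes of excitation and calcium handling 4 were higher and 3 lower at 45 days, and 2 higher and 3 lower at 15 days, and 1 cell gave 38.4% of the list's UMIs at 45 days. Of 23 receptors for constrictors and dilators 5 reached the floor, and of these 2 were higher and 1 lower at 45 days, and 0 higher and 1 lower at 15 days. Of 25 dense plaque genes 6 were higher and 2 lower at 45 days, and 2 higher and 3 lower at 15 days. Cells with 2 of the proliferation genes MKI67, TOP2A and CDK1 numbered 9 of 90 without induction, 0 of 15 after 15 days and 4 of 24 after 45 days, and the cycling list was at 544, 197 and 919 CPM in the same order, of which 1 cell gave 24.3%, 58.1% and 69.6%.

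Outside the lists, EMCN, a sialomucin known from capillary endothelium, was at 68.3 CPM without induction, 293 CPM after 15 days and 381 CPM after 45 days, 5.57-fold at 45 days (4.09 to 7.62) and 4.29-fold at 15 days (2.91 to 6.24). Other kept cells had 118, 204 and 152 CPM. KLHDC8B was at 56.2, 210.0 and 198 CPM, 3.53-fold at 45 days (2.39 to 5.20), and at 15 days its sign turned after thinning. HIC1, a transcriptional repressor of quiescent mesenchymal progenitors in mouse, was at 28.5, 44.5 and 126 CPM, 4.40-fold at 45 days (2.61 to 7.41). CD36, a fatty acid receptor, was at 108, 744 and 352 CPM, highest at 15 days. The endothelial marker list as a whole was at 514, 1056 and 676 CPM in the ACTA2 and TAGLN cells and 924, 1065 and 577 CPM in other cells, and its part in the EMCN values was not tested.

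Genes of glycolysis and the response to low oxygen were higher at 45 days and not at 15 days. Of 18 genes 13 passed 2-fold upward and 0 downward at 45 days against no induction, with a median log2 ratio of 1.45, and 0 were higher and 3 lower at 15 days, with a median of -0.14 (all tested genes: 10.1% higher, and 4.82% lower at 45 days and 6.23% at 15 days). Between the induced libraries 15 were higher and 0 lower at 45 days against 15 days, where 9.81% of genes were higher and 7.5% lower. PDK1, the kinase that holds pyruvate back from mitochondria, was at 11.2 CPM without induction, 6.36 CPM after 15 days and 146 CPM after 45 days, but 1 cell gave 69.4% of the last. NDRG1, a hypoxia-responsive gene, was at 20.7, 31.8 and 138 CPM, 6.64-fold at 45 days against no induction (3.82 to 11.7). For NDRG1 too, 1 cell gave over 20% of the UMIs at 45 days. GAPDH, a glycolytic enzyme named after its values were seen, was at 3241, 2793 and 6304 CPM, 1.94-fold at 45 days (1.83 to 2.06). NDRG1 and GAPDH were highest at 45 days. The same genes had medians of 0.49 at 45 days and 0.78 at 15 days in other kept cells, so the direction at 15 days was not that of the ACTA2 and TAGLN cells. Without the cell with cardiac genes the median at 45 days was 1.10, and the lowest value over the alternatives was 0.69, with 2 of the 4 entry genes required. At 15 days it was 0.07 without cells above 20000 UMIs. Per cell the list's summed level had a median of 5765 CPM without induction, 5196 CPM after 15 days and 9923 CPM after 45 days. Summed over the cells with a MYH11 UMI the list was at 7095, 5597 and 7135 CPM, and over the cells without one, which at 45 days include the cell with cardiac genes, at 7072, 6879 and 18740 CPM, so the higher level was seen in cells without a MYH11 UMI.

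**Figure D4:**
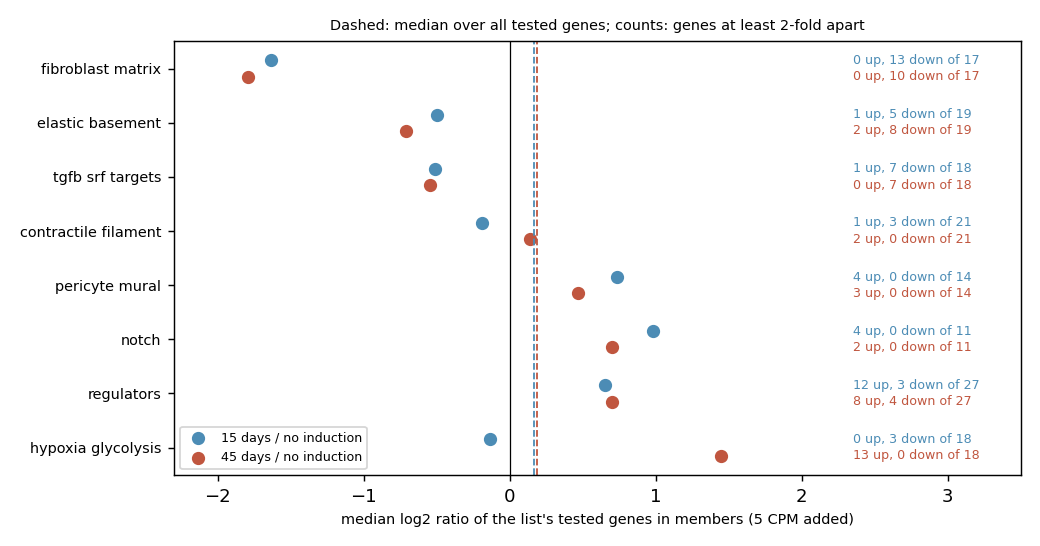
Median log2 ratio of the tested genes of 8 lists in ACTA2 and TAGLN cells, 15 days over no induction and 45 days over no induction, 5 CPM added, with the all-gene medians dashed (0.17 and 0.19) and the numbers of genes at least 2-fold apart at the right. Fibroblast matrix lies at -1.64 and -1.79, and the hypoxia and glycolysis list at -0.14 and 1.45.

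The set was split by MYH11, a choice made after the values were seen. Against MYH11-negative cells, MYH11-positive cells had more pericyte RNA in every library: the summed list had a median per cell of 4937 CPM in positive and 1465 CPM in negative cells without induction, 5658 and 1891 CPM after 15 days, and 5699 and 2537 CPM after 45 days. Of 15 tested pericyte genes 4 were 2-fold or more higher in the positive cells of all 3 libraries and 0 lower, where 0.696% of 6320 genes were higher and 0.981% lower. The pericyte list holds KCNJ8 and ABCC9, which are genes of the rule. MCAM was at 849 CPM in positive and 109 CPM in negative cells without induction, 799.5 and 284 CPM after 15 days, and 1331 and 567 CPM after 45 days. RGS5, a regulator of G protein signalling in mural cells, was at 621 and 244 CPM, 744 and 82.7 CPM, and 425 and 147 CPM. GJA4, the gap junction protein connexin 37, was at 149.6 and 16.1 CPM, 262 and 59.1 CPM, and 283 and 17.0 CPM. ANGPT2, a ligand of the TIE2 receptor, was at 194 and 38.7 CPM, 165 and 35.5 CPM, and 113 and 22.7 CPM, and NRARP, a Notch target, at 35.2 and 4.30 CPM, 55.1 and 0 CPM, and 113 and 11.3 CPM. The summed contractile list was similar on both sides of the split, with 24344 CPM in positive and 25100 CPM in negative cells without induction, 19864 and 22137 CPM after 15 days, and 27435 and 24592 CPM after 45 days. That sum says little of smooth muscle genes alone, since it holds the non-muscle actins ACTB and ACTG1. They were at 6364 and 6367 CPM in the uninduced ACTA2 and TAGLN cells. Gene by gene, 1 of 20 contractile genes was 2-fold higher in the positive cells of all 3 libraries and 0 lower.

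The matrix list differed between libraries in MYH11-negative cells more than in MYH11-positive ones. MYH11 is a gene of the rule, so the negative cells entered through CNN1, DES or ACTG2, in a mix that differed between libraries (among all members ACTG2 in 42 of 90, 5 of 15 and 4 of 24 cells, and CNN1 in 48 of 90, 13 of 15 and 21 of 24), and the part of that mix was not tested. Their summed fibroblast matrix list was at 32828 CPM without induction, 8640 CPM after 15 days and 9413 CPM after 45 days. In MYH11-positive cells the summed list was at 9485, 9966 and 9838 CPM, level across the 3 libraries. Its median per cell was 8362.5, 6272 and 8199 CPM in positive cells and 20982, 7657 and 8033 CPM in negative cells, lowest at 15 days in both. COL1A1 was at 6321, 839 and 981 CPM in the negative cells and at 951, 1089 and 821 CPM in the positive cells. At 15 days 1 positive cell of 23331 UMIs was at 2272 CPM, and the other positive cells lay between 188 and 776 CPM. MFAP4, a protein of elastic fibres, was at 17.6 CPM in positive and 230.1 CPM in negative cells without induction, 0 and 47.3 CPM after 15 days, and 0 and 51.0 CPM after 45 days, and FBLN5, which assembles elastic fibres, at 0 and 90.3 CPM, 0 and 70.9 CPM, and 0 and 22.7 CPM. Both genes were lower in positive cells without induction. In the positive cells of the induced libraries 3 UMIs would be 41.4 CPM at 15 days and 42.5 CPM at 45 days, so that 0 UMIs there leave little room to tell the groups apart, and none for FBLN5 at 45 days. All 13 uninduced cells above 20000 UMIs were MYH11-negative, as was the 1 such cell at 45 days, while the 2 such cells at 15 days were MYH11-positive, and the median totals were 7880 UMIs in positive and 10464 UMIs in negative cells without induction, 15466 and 9420.5 UMIs after 15 days, and 9635 and 7979 UMIs after 45 days. Only 5 positive cells at 15 days and 7 at 45 days carry these values, and since MYH11 was sparse, a cell without a UMI may still express it.

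**Figure D5:**
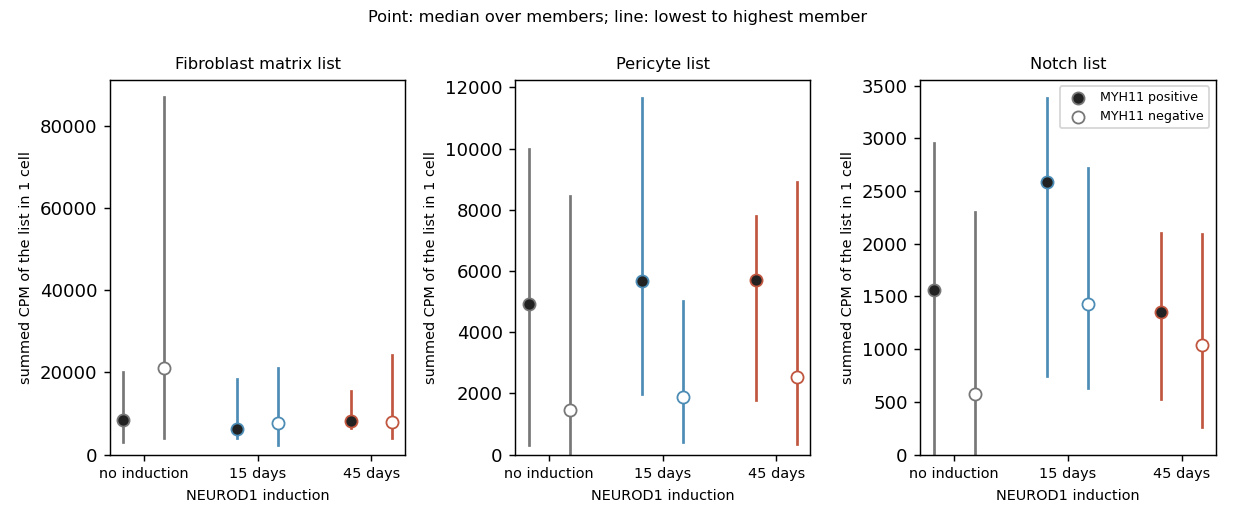
Summed CPM per cell of the fibroblast matrix, pericyte and Notch lists in MYH11-positive and MYH11-negative ACTA2 and TAGLN cells of each library, median with a line from the lowest to the highest cell. Pericyte medians are 4937, 5658 and 5699 CPM in positive cells and 1465, 1891 and 2537 CPM in negative cells for none, 15 and 45 days.

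Not every cell of the set was vascular by its RNA. At 45 days 1 cell of 33524 UMIs carried 406 UMIs of ACTC1, 376 of MYH6, 309 of TTN, 236 of MYL7 and 219 of TNNT2, genes of the cardiac sarcomere, beside 90 UMIs of ACTA2, 8 of TAGLN, 4 of CNN1 and 0 of MYH11. It gave 98.3% of the striated muscle UMIs of the set at that time, and the list was at 7814 CPM with it and 155 CPM without it, against 59.6 CPM without induction and 44.5 CPM after 15 days. Cardiac muscle cells also carry ACTA2 while they mature. Keratins of simple epithelium were higher in uninduced cells: KRT8 was at 734, 185 and 138 CPM and KRT18 at 1225, 325 and 105 CPM without induction, after 15 days and after 45 days, and the epithelial list was at 2233, 566 and 291 CPM against 1292, 1067 and 652 CPM in other cells. At least 2 epithelial markers were found in 48 of 90, 10 of 15 and 6 of 24 cells, and without KRT8 and KRT18 in 2, 0 and 0. Neuronal markers were at 551, 853 and 413 CPM, against 298, 4538 and 1909 CPM in other cells. Haematopoietic markers were at 18.1, 38.2 and 8.10 CPM, against 172, 358 and 201 CPM in other cells, with 4, 6 and 9 of 11 genes at 0. The part of these cells in the results above was not tested, except where values without them are given.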

How the data were processed

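The 3 libraries were made with 10x Genomics 3′ v3 chemistry, which counts the 3′ end of polyadenylated RNA, after papain dissociation at 20 U/ml for 30 min and a 40 µm filter, per the labels' protocols. The deposited values are counts of UMIs per gene and barcode, not normalized, made with Cell Ranger 3.0.0 on GRCh38 per the submitters' processing notes; the file headers name version 3.0.1. Which gene annotation was counted is not given in the sources used here. In all, 33456 of 33538 identifiers were found in GENCODE 29, which gave the coordinates. RNA released from broken cells is also counted in intact droplets.

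UMIs were summed over the ACTA2 and TAGLN cells of a library and scaled to CPM. Log2 ratios add 5 CPM to each side and so understate the change of low genes, while folds are plain ratios of CPM. A gene was tested at a mean of at least 20 CPM over the 3 libraries, and counted at 2-fold; the word tested means that it passed this floor, and no p-value was computed. Shares have exact Clopper-Pearson intervals, and ratios exact conditional intervals; all cover counting error only. A sum of 0 was set to 3 UMIs. The cells of 1 library are not replicates. Named genes are the genes of the rule, genes of the contractile, regulator, pericyte, elastic and Notch lists, the 10 highest and 10 lowest per comparison in which no single cell gave over 20% of the UMIs, and the 2 highest and 2 lowest of other lists; others are said to be chosen after their values were seen. The cells, lists and tests were chosen with earlier results of these data known. Alternatives varied the UMI thresholds, entry genes, doublets, depth, scaling, added CPM and floor, and, chosen after seeing the data, left out deep, cycling or cardiac cells. Scripts were tested on simulated data, with Python 3.11.15, numpy 2.4.6, scipy 1.17.1, pandas 2.3.3, scikit-learn 1.9.0 and matplotlib 3.10.9.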

Additional observations from a re-analysis of the deposited data

How the results depend on the processing

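No paired analysis was possible because each group has 1 library. Each group is 1 capture of pooled organoids, so the spread between organoids is unknown, and 15 cells at 15 days with 157153 UMIs limit every gene value there. The lower share in the induced libraries kept its direction under every alternative run. Shares of ACTA2 and TAGLN cells that moved beyond counting error were 0.779% without induction and 0.132% at 15 days with 5 UMIs of each gene, 0.316%, 0.151% and 0.0830% with 2 of 4 entry genes, 0.435%, 0.0619% and 0.138% after thinning, and 0.452%, 0.0754% and 0.156% without cells with markers of another class, in the order none, 15 and 45 days.

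Counts of genes 2-fold apart moved with the choice of cells, the added CPM and the floor. With 2 of 4 entry genes they were 1950 at 45 days and 1651 at 15 days against no induction and 2055 at 45 against 15 days, in place of 949, 1038 and 1103. Thinning gave 2410, 4420 and 4027, and 225 against KCNJ8 and ABCC9 cells in place of 83. With 5 UMIs of each gene the count was 1673 at 45 against 15 days and 137 against KCNJ8 and ABCC9 cells. Keeping cells with KCNJ8 and ABCC9 gave 660 at 15 days against no induction and 614 at 45 against 15 days. Without cells with markers of another class, where 4 cells remained at 15 days, these counts were 3313 and 3198, and 44 against KCNJ8 and ABCC9 cells. Adding 20 CPM gave 429, 449 and 495, 107 against other cells in place of 204, and 42 against KCNJ8 and ABCC9 cells. A floor of 5 CPM gave 1984, 2441 and 2655, and a floor of 50 CPM 340, 332 and 312, with 122 and 53 against the other cells and the KCNJ8 and ABCC9 cells. The cause was not tested.

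Log2 ratios of named genes that changed sign were, at 15 days against no induction after thinning, where 3 cells remained, HEY2 at -2.75, KLHDC8B at -3.40, MEF2D at -2.75, NDUFA4L2 at -0.68 and TWIST1 at 0.59, and without cells above 20000 UMIs MEF2C at -0.077. At 45 against 15 days NDUFA4L2 was at -0.17 with 2 of 4 entry genes and -0.12 without cells with markers of another class. Against other cells, in the library with the lowest ratio, thinning gave ACAN -0.32, CSPG4 -2.73 and RGS5 -3.66, and leaving out cells with markers of another class gave ACAN -0.35 and MICAL2 -0.64. Against KCNJ8 and ABCC9 cells the last alternative gave MICAL2 -1.01 and TNFRSF12A -1.72. That alternative left 40 cells without induction, 4 after 15 days and 15 after 45 days.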
